A study of Saccharomyces cerevisiae with 2 samples.

Results

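The regions described here are the DHS (DNase I hypersensitive sites, where the nuclease finds open chromatin) at the nuclear tRNA genes of the budding yeast Saccharomyces cerevisiae. A DHS was taken when it shared at least 1 bp with the body of a tRNA gene extended by 500 bp on both sides, separately in each deposited list. This gave 289 of 3155 DHS in the wild-type (WT) library and 275 of 2875 in the G170D library, around 275 nuclear tRNA genes. WT and G170D both had the strain background BY4741. G170D carries a temperature-sensitive allele of Hsp90, a chaperone made from a pair of genes in this yeast, and the labels do not say which gene holds the allele. Both cultures grew in YPD at 37 °C for 6 h, from an OD of 0.25 (WT) or 0.37 (G170D) to 0.65 to 0.7, so growth over that time differed with the strain and cannot be told apart from it. There was 1 library per strain, so no value has a replicate error and no test between strains was possible. All intervals given are exact at 95% and hold counting error alone. The read depth of the libraries is unknown.

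tRNA genes are transcribed by RNA polymerase III from a promoter inside the gene. The factor TFIIIC binds an A box near the start and a B box further along the gene, and then places TFIIIB just upstream of the start, where the polymerase is recruited. In yeast these genes are known as short units of transcription that are nearly free of nucleosomes while they are bound by their factors. Footprints are short stretches inside a DHS that are protected from cutting, as a bound protein would leave them.

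DHS at tRNA genes were wide and strong in both lists. In WT the median width was 1099 bp (quartiles 501 and 2011 bp), against 339 bp for the 2866 other DHS, and in G170D it was 1008 bp (quartiles 451.5 and 1642.5 bp) against 361.5 bp for 2600 others. They made up 9.16% of the WT list by number and 18.0% by length, and 9.57% and 17.9% of the G170D list. By the authors' score, used here only to order DHS within a list, 72.7% of the WT members and 70.5% of the G170D members lay in the top quartile, where 20.2% of the other DHS of either list lay. Of the 100 highest-scoring DHS, 65 in WT and 62 in G170D were at tRNA genes. Most DHS at tRNA genes thus stood among the highest-scoring DHS of their own list. Only 12 of the WT members and 23 of the G170D members fell in the lowest quartile of their list.

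The highest-scoring member in both lists lay over SUP53, a tRNA gene on chromosome III (90859 to 90972, sacCer3) 351 bp upstream of the leucine synthesis gene LEU2. It spanned III:90675-93422 in WT, with 110 footprints. In G170D it spanned III:90674-93361 with 87 footprints, and it had place 2 in each list. BY4741 is known to lack LEU2, so whether this signal came from the native locus is unknown. Without it, the next members in WT were a 2061-bp DHS beside YNCC0001C (III:82951-85011, place 6), a 2711-bp DHS at YNCC0010C (III:167949-170659, place 9), a narrow 438-bp DHS near YNCB0002W (II:35509-35946, place 10) and a 2570-bp DHS at YNCN0010C (XIV:559566-562135, place 11). In G170D the next were those at YNCC0010C (place 8), YNCN0010C (place 10), YNCM0021C (XIII:371774-372788, place 14) and YNCG0022W (VII:541591-543629, place 15). The regions at YNCC0010C, YNCN0010C and YNCB0002W were listed in both strains, the last with the same start and end. Beside YNCC0001C the 2061-bp WT DHS overlapped 2 G170D DHS. The one in reach of the gene was 454 bp wide (III:82950-83403, place 116), and the length of the other was not measured here. The DHS over the gene itself was 694 bp wide in WT and 693 bp in G170D. The widest member of both lists reached YNCL0040W and YNCL0044W on chromosome XII and measured 6070 bp in WT (XII:791484-797553) and 5954 bp in G170D (XII:791516-797469). The next widest were those at YNCG0022W and YNCG0023C (4736 bp) and at YNCM0023C (4370 bp) in WT, and those at YNCE0009C and YNCE0010W (4079 bp) and at YNCC0014W (3693 bp) in G170D.

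Of the 289 WT members, 200 covered at least part of a tRNA gene body, with a median width of 1503 bp, and 89 lay beside the gene, with a median of 302 bp. In G170D these were 189 members (1271 bp) and 86 members (291 bp). In each list a single DHS could reach a pair of tRNA genes, as 18 members did in WT and 17 in G170D. Members touched the 500 bp upstream of a coding start more often than other DHS did. The share was 71.6% in WT (66.1 to 76.8) against 47.2% of other DHS, and 66.2% in G170D (60.3 to 71.8) against 47.3%, and wider DHS have more chance to touch such a window. At the limit of the rule, the members farthest from a gene body in WT were 485 bp away from CDC65 (654 bp wide, place 162), 475 bp from YNCE0018W (1084 bp, place 138) and 471 bp from YNCD0017W (300 bp, place 1636). The nearest WT DHS left out were 511 bp from YNCP0007C (201 bp, place 2590), 556 bp from YNCH0009C (186 bp, place 2493) and 558 bp from YNCB0013W (909 bp, place 852). In G170D the last members lay 494 bp from CDC65 (708 bp, place 179) and 475 bp from YNCE0018W (1039 bp, place 181), and the nearest left out lay 513 bp from YNCD0013C (167 bp, place 2349).

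Nearly all tRNA genes had a DHS in reach. A DHS touched the extended window of 263 of 275 genes in WT (95.6%, 92.5 to 97.7) and of 251 in G170D (91.3%, 87.3 to 94.3). Windows of similar length around 6002 coding starts (536 bp on both sides) held one for 38.6% of genes in WT and 35.5% in G170D. For the tRNA genes, 251 had one in both lists and 12 in neither, while 12 had one in the WT list alone and 0 in the G170D list alone. Around coding starts 8.26% of genes had one in WT alone and 5.13% in G170D alone, so the 12 tRNA genes found in WT alone (4.36%, 2.27 to 7.50) were a smaller share than that background. A limit of 3 counts of the total puts the share in G170D alone at up to 1.09%, and the exact interval reaches 1.33%. This order depended on how the WT list was shortened. The WT list was limited from its highest score down to the covered length of the G170D list, a setting chosen after seeing the data. In that setting 4 genes had a DHS in WT alone and 7 in G170D alone. It kept 1673 WT DHS against 2875 in G170D, so genes found in WT through lower-ranked DHS alone dropped out by the cut itself. With lists of the same number, a DHS touched 94.5% of genes in WT and 91.3% in G170D, so the order held.

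Few members of one list lacked a partner in the other when 1 shared bp made a partner. Of the WT members, 31 shared no bp with any G170D DHS (10.7%, 7.41 to 14.9), against 28.3% of all WT DHS. Of the G170D members, 5 had no WT partner (1.82%, 0.593 to 4.19), against 17.7% of all G170D DHS. Those without a partner were narrow and weak, with a median width of 233 bp (92 to 345 bp) for WT and 127 bp (109 to 147 bp) in G170D. The strongest of them stood at place 1084 in WT and 2489 in G170D. Since members in general were wide and high in their lists, these shares compare DHS that differ in width and score. When a partner had to share 50% of both DHS, 27.0% of the WT members and 24.0% of the G170D members lacked one.

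The 12 genes found in WT alone had short WT DHS, of 92 to 506 bp in the window, that mostly lay beside the gene. The DHS covered any of the gene body at 1 of the 12, and it lay on the downstream flank at 10 and on the upstream flank at 6. At YNCG0040C (VII:857378-857491) the WT window held 506 bp in 2 DHS on either side of the gene, with 7 footprints, and the nearest G170D DHS was 1167 bp away. YNCG0018C (VII:412294-412367) held 382 bp and 6 footprints in WT, again on both sides of an uncovered gene. SUF1, a frameshift suppressor locus (XV:110962-111033), was the exception with a DHS over the gene, of 345 bp and 5 footprints. YNCD0004W (IV:410379-410451) held 301 bp, TRT2, a threonine tRNA gene (XI:46735-46806), 260 bp and IMT3, an initiator methionine tRNA gene (X:517813-517884), 257 bp. None of these 6 genes had a G170D DHS within its window, and their WT DHS stood no higher than place 1580 of 3155. Over all 12 genes the best place was 1354, at YNCN0012C.

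The 12 genes with no DHS in either list were SUF3, SUP17, SUP61, EMT5, IMT2, YNCC0008W, YNCG0046W, YNCH0016C, YNCK0019W, YNCL0033C, YNCL0039W and YNCL0047W. Their nearest DHS lay 627 bp (YNCK0019W) to 8214 bp (SUP61) away in WT and 645 bp (YNCH0016C) to 8323 bp (SUP61) away in G170D. SUP61, a serine tRNA gene on chromosome III (227942 to 228042), thus stood farthest from any DHS in both strains. The sources used here do not say how reads that fit several tRNA gene copies were handled, and its part in values at gene bodies was not tested.

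DHS around tRNA genes were lopsided along the direction of transcription. Coverage climbed slowly from 47.7% of genes in WT and 43.0% in G170D at 950 to 1000 bp upstream of the gene start to 82.3% and 76.2% at 150 to 200 bp upstream. It dipped to 75.7% and 69.9% over the first 50 bp of the gene. A second crest followed at 250 to 300 bp after the start in WT (89.0%) and at 200 to 250 bp in G170D (77.2%), and coverage then dropped steeply, to 46.1% and 30.2% at 500 to 550 bp. For the DHS that covered the position 200 bp upstream in both lists (204 genes), the upstream end was at a median distance from the start of 977 bp (WT) and 899.5 bp (G170D). For those that covered the position 250 bp downstream in both (211 genes), the downstream end was at a median distance of 547 bp (WT) and 459 bp (G170D). The open domain thus reached farther upstream than downstream in both strains.

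**Figure D1:**
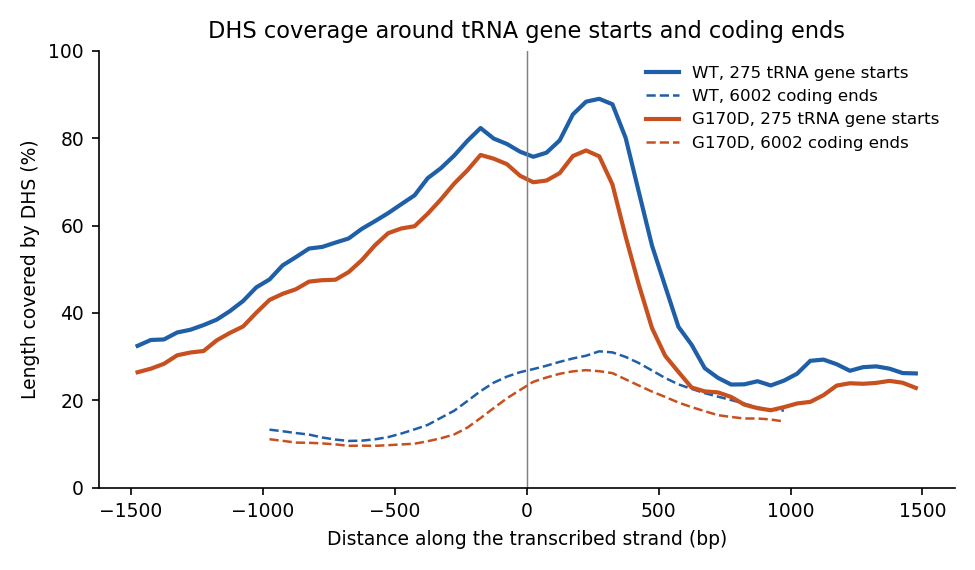
Percentage of length covered by DHS in bins of 50 bp, against distance in bp along the transcribed strand from the starts of 275 tRNA genes (solid) and from 6002 coding ends (dashed), in WT (blue) and G170D (orange). Coverage at tRNA genes has a crest on each side of the start, at 82.3% and 89.0% in WT, and the downstream side drops to 46.1% in WT at 500 to 550 bp.

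The gene body was covered whole at 205 tRNA genes in WT (74.5%, 69.0 to 79.6) and at 187 in G170D (68.0%, 62.1 to 73.5). At 27 genes in WT and 25 in G170D the list held DHS on both flanks and none over the body, which left a gap at the gene. It was covered in part at 11 genes in WT and 13 in G170D. At the other genes with a DHS, it lay on the downstream flank alone (14 genes in WT, 13 in G170D) or on the upstream flank alone (6 and 13 genes).

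Between the strains, the DHS length in the window of a tRNA gene was shorter in G170D. In WT the window held 0 to 1114 bp, with a median of 898 bp and a mean of 802 bp. In G170D it held 0 to 1106 bp, with a median of 799 bp and a mean of 692 bp. The mean difference was -110 bp, or -13.7%. Around coding starts the corresponding change was -14.6% (178 to 152 bp), and the kilobases of all tRNA DHS changed by -17.5% (393 to 324 kb), against -17.2% for other DHS. The overall reduction at tRNA genes was therefore close to that of the rest of the list. Length was shorter in G170D at 192 tRNA genes, longer at 30 and equal at 53. Around coding starts 27.4% of all genes were shorter and 14.4% longer, and most coding starts held no DHS in either list. A window covered over at least 900 bp was found at 136 genes in WT and at 88 in G170D, and no matching count was made around coding starts.

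**Figure D2:**
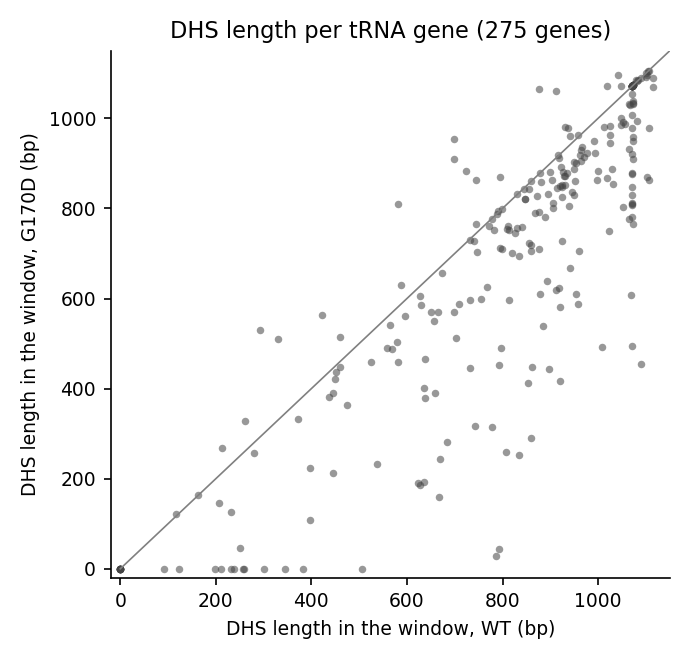
DHS length in bp within the window of each of 275 tRNA genes, in WT (x axis) against G170D (y axis), with 1 point per gene and the line of equality. Points lie below the line for 192 genes and above it for 30.

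In zones of fixed position, the reduction was uneven along the gene. In the zone 300 to 500 bp downstream of the start, the mean DHS length was 146 bp for WT against 105 bp for G170D, so that G170D had 72.1% of the WT length. In the mirror zone 300 to 500 bp upstream the means were 139 and 125 bp, or 89.9%, and over the gene body they were 60.1 and 55.4 bp, or 92.2%. The downstream zone was shorter in G170D at 150 genes and longer at 13, while the upstream zone was shorter at 44 and longer at 8. For comparison, 17.6% of all coding ends were shorter and 7.25% longer at 300 to 500 bp downstream, and 11.6% of all coding starts were shorter and 6.8% longer at 300 to 500 bp upstream. Among sites with a DHS in the zone in at least 1 list, the share that was shorter in G170D was 61.0% downstream of tRNA genes (54.6 to 67.1, 246 genes) and 21.1% upstream (15.7 to 27.2, 209 genes). It was 43.7% downstream of coding ends (41.8 to 45.7, 2421 sites) and 39.9% upstream of coding starts (37.6 to 42.2, 1745 sites). By this share, the downstream side of tRNA genes stood above coding ends and the upstream side below coding starts, with 1 library per strain and no replicate check. By length the contrast with coding genes was smaller. G170D had 89.6% of the WT length at 300 to 500 bp before coding starts and 75.0% after them, and 74.7% before coding ends and 82.9% after them. The 89.9% upstream and 72.1% downstream of tRNA genes were thus close to values on some sides of coding genes.

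The ends of the DHS were also measured one by one. The downstream end lay nearer to the gene in G170D at 182 of 211 genes and farther at 27, with a median change in reach of -69 bp (quartiles -133 and -32 bp). The upstream end lay nearer at 139 of 204 genes and farther at 43, with a median change of -46.5 bp (quartiles -124.25 and 0 bp). Both ends thus lay nearer to the gene in G170D at most of the genes measured. The position 250 bp downstream was covered at 245 genes in WT and 211 in G170D. The position 200 bp upstream was covered at 224 and 207. Genes covered there in 1 list alone were left out of these changes. In WT the downstream end lay within 500 bp of the start at 83 of these 211 genes (quartiles over all 443 and 903 bp), and the upstream end at 44 of 204 (quartiles 544.25 and 1550.5 bp). Among DHS with exactly 1 partner in the other list, the G170D partner was shorter for 170 of 203 at tRNA genes (83.7%) and for 1154 of 1652 elsewhere (69.9%). The median change in width over all such pairs was -103 bp at tRNA genes and -67 bp elsewhere. The tRNA DHS in such pairs were wider, with a WT median of 1171 bp against 673.5 bp, and the depth of the libraries, which can move DHS ends, is unknown.

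**Figure D3:**
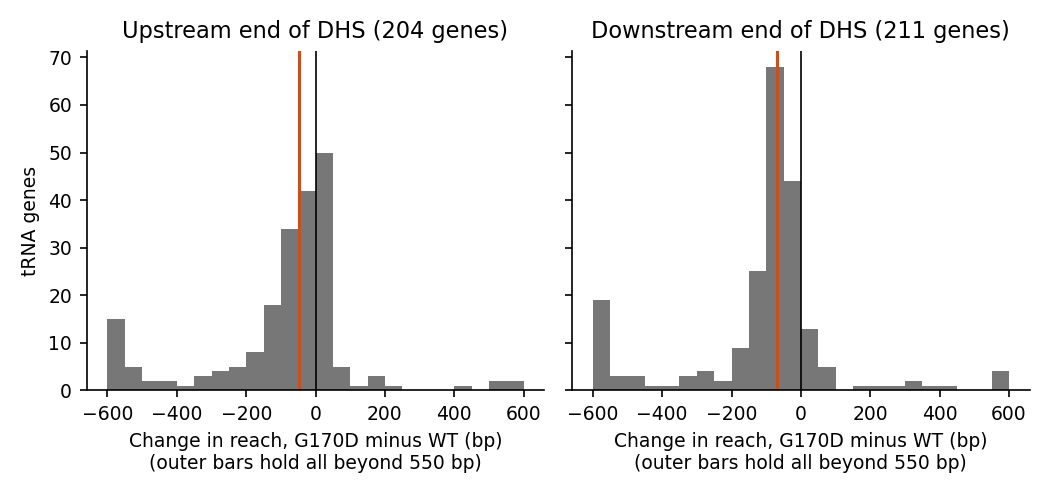
Change in the distance from the tRNA gene start to the upstream end (left, 204 genes) and downstream end (right, 211 genes) of the DHS, G170D minus WT in bp, as numbers of tRNA genes per 50 bp. Negative values are DHS that reached less far in G170D, and the orange lines mark the medians of -46.5 and -69 bp. The outermost bars also hold all larger changes.

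The largest losses of DHS length in G170D were at genes whose WT DHS ranked below the median tRNA DHS. SUP3, a tyrosine tRNA gene (XV:288192-288280), had 786 bp with 18 footprints in WT, and 28 bp with 0 footprints in G170D. YNCN0004W (XIV:104805-104877) held a WT DHS of 793 bp over the whole gene, with 16 footprints, and 43 bp with 0 footprints in G170D. YNCF0009C (VI:191513-191613) held 1090 bp and 26 footprints against 454 bp and 4 footprints, and YNCI0011W (IX:370417-370488) 835 bp and 16 footprints against 252 bp and 4 footprints. The WT DHS at these 4 genes stood at place 607 (YNCF0009C) to 2051 (YNCN0004W), while the median tRNA DHS lay within the top 8.37% of the list. In the other direction, YNCE0008C (V:131082-131153) had 698 bp in WT against 954 bp in G170D, with 13 footprints in each. YNCN0006W (XIV:374869-374959) held 292 and 531 bp, YNCJ0023C (X:524012-524093) 581 and 809 bp and YNCM0018C (XIII:321147-321219) 698 and 909 bp. At YNCE0008C, YNCJ0023C and YNCM0018C the WT list had 2 DHS, with none or 4 bp of the gene body covered, and the G170D list had 1 DHS that ran through the gene. At YNCN0006W the gene body was uncovered in both lists, and the G170D list held a second DHS upstream of it.

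Genes grouped by name differed in coverage within a group. The 8 tyrosine suppressor loci, named for mutant alleles that read stop codons, all had a DHS in both lists. In WT and in G170D, respectively, their windows held 961 and 705 bp at SUP2, 859 and 705 bp at SUP4, 880 and 859 bp at SUP5, 684 and 282 bp at SUP6 and 847 and 820 bp at SUP7. SUP8 held 1089 bp in both, SUP11 held 422 and 564 bp, and SUP3 is given above. The family means were 816 and 631.5 bp, with 6 shorter, 1 longer and 1 equal. Among the 4 initiator methionine genes, IMT1 held 1072 bp in both, IMT4 held 628 and 186 bp, IMT3 held 257 and 0 bp, and IMT2 held none. Their means of 489 and 314.5 bp were below those of all tRNA genes, with 4 genes in the group. Among the 5 elongator methionine genes, EMT3 held 1073 bp in both, EMT1 1065 and 1032 bp, EMT2 811 and 762 bp, EMT4 666 and 571 bp, and EMT5 none. Of 15 frameshift suppressor (SUF) loci, 11 were shorter in G170D and 1 was longer, with means of 794 and 657 bp. The 4 serine suppressor loci averaged 385 and 399 bp, with SUP17 and SUP61 at 0 in both. Both the initiator and the elongator methionine genes thus ranged from a fully covered window to none.

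The tRNA genes were also grouped by gene length and by neighbourhood. Genes of 71 to 74 bp (192 genes) averaged 804 bp for WT against 701 bp for G170D, those of 82 to 84 bp (22 genes) 752 and 668 bp, and those above 84 bp (61 genes) 813 and 673 bp. Where the next coding gene downstream was convergent (112 genes) the means were 866 and 752 bp, and where it lay in tandem (163 genes) they were 758 and 651 bp. The downstream outer zone in G170D held 70.9% of the WT length in the convergent set and 73.0% in the tandem set. It held 66.4% where the next coding gene started or ended within 500 bp (195 genes) and 85.6% where it lay farther away (80 genes). The 16 genes whose window met that of another tRNA gene averaged 968 and 803 bp, against 792 and 685 bp for the 259 isolated ones. The mean length was lower in G170D on each of the 16 chromosomes, by 4.12% on chromosome XIII to 27.2% on chromosome VI.

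Footprints were denser in DHS at tRNA genes than elsewhere in both strains. The WT members held 10253 footprints (26.1 per kb) against 19.4 per kb in other DHS, and the G170D members held 7611 (23.5 per kb) against 17.5 per kb. Members mostly ranked higher by score than other DHS, and density was not compared among DHS of like score. A WT member held a median of 27 footprints and a G170D member 21, and 1 and 8 members held none. Divided by the WT number, the G170D number of footprints gave 0.742 (0.721 to 0.765) at tRNA genes and 0.747 (0.735 to 0.759) in other DHS. In the 310.6 kb covered by tRNA DHS of both lists it was 0.829 (0.804 to 0.855), against 0.833 (0.818 to 0.848) in the length shared by other DHS. The intervals overlap almost wholly, so a difference in this ratio between tRNA DHS and other DHS was not detectable. Per gene, the window held fewer footprints in G170D at 228 genes, more at 20 and as many at 27. The last set includes the 12 genes with no DHS in either list. Over all DHS the G170D number of footprints was 0.746 of the WT number, and no background windows were counted for the comparison per gene.

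Strong footprints were most frequent upstream of the tRNA gene and over it. Strength is given as the share of footprints that belonged to the strongest 10% of their list by the authors' score. Within 50 bp upstream of the start, where TFIIIB is known to bind, this share was 50.9% in WT (45.4 to 56.3, 342 footprints) and 42.4% in G170D (37.0 to 48.0, 323 footprints). It was 38.8% and 40.0% at 51 to 200 bp upstream and 38.7% and 30.0% in the gene body. It then declined to 30.4% and 16.5% in the 50 bp after the gene end and to 15.4% and 10.4% at 51 to 300 bp after it. In other DHS it was 5.69% and 6.26%. The intervals of the strains overlapped in both upstream zones and in the gene body. They did not overlap in the 50 bp after the gene end (25.5 to 35.7% in WT, 12.2 to 21.7% in G170D). Nor did they at 51 to 300 bp after it (13.8 to 17.2% and 8.65 to 12.3%). These intervals hold counting error alone, and neither strain had a replicate library. The strongest 10% was also taken within lists of different length. Whether strong footprints differed between the strains in any zone can therefore not be decided from these intervals. Strong footprints were thus less frequent downstream of the gene than upstream of it or over it, and more frequent in each of these zones than in other DHS. Most other DHS ranked lower by score than those at tRNA genes, and no set of like score was compared. Of the 100 strongest footprints of each list, 43 in WT and 45 in G170D lay in DHS at tRNA genes, and 57 and 55 in other DHS. For comparison, DHS at tRNA genes held 10253 of all 45019 footprints in WT DHS and 7611 of 33585 in G170D DHS. Within 50 bp upstream of the start lay 10 in WT and 6 in G170D, and at 51 to 200 bp upstream 15 and 14. In each strain 2 lay in a tRNA gene body, where 429 of all WT footprints and 347 of all G170D footprints lay.

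Footprints at tRNA genes also recurred between the lists. Of WT footprints, 77.5% (72.7 to 81.8) within 50 bp upstream of the start overlapped a G170D footprint, 70.9% in the gene body, 65.7% in the 50 bp after the gene end and 54.5% at 51 to 300 bp after it. In other DHS it was 44.9%. Of G170D footprints the shares ran from 82.9% to 87.4% in the same zones, against 60.1% in other DHS. The WT shares thus decreased along the gene and the G170D shares did not. Footprints overlap by chance more often where they are denser, and the WT share also counts footprints where G170D had no DHS.

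**Figure D4:**
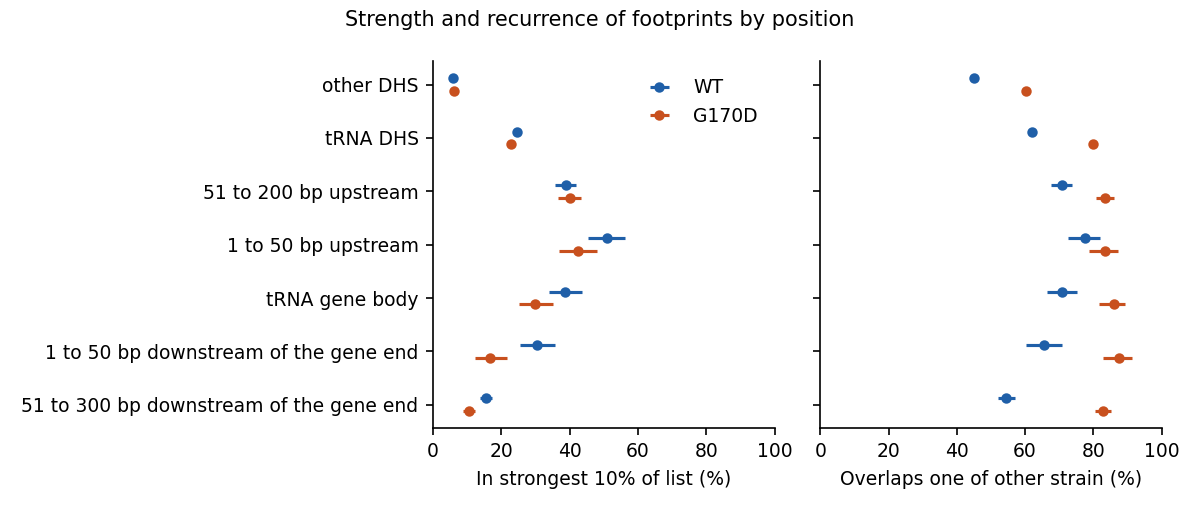
Share of footprints in the strongest 10% of their list by score (left) and share that overlapped a footprint of the other strain (right), in percent, for other DHS, all tRNA DHS and zones along tRNA genes, in WT (blue) and G170D (orange), with exact 95% intervals. The share of strong footprints is highest within 50 bp upstream of the start, at 50.9% in WT and 42.4% in G170D.

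Within the gene, footprint density varied with position in both strains. For the 192 genes of 71 to 74 bp, WT held 32.0 footprints per kb of DHS in the first 10 bp (23.6 to 42.4) and G170D 31.9 (23.2 to 42.8). The lowest values lay in the middle of the gene, at 17.4 per kb in WT 40 to 49 bp after the start (11.4 to 25.6) and 13.1 in G170D at 30 to 39 bp (7.79 to 20.8). The highest bin in both lists lay 70 to 79 bp after the start, at the end of these genes, with 61 footprints or 40.4 per kb in WT (30.9 to 51.9) and 64 or 46.6 per kb in G170D (35.9 to 59.5). In the next 10 bp they held 24.4 and 15.8 per kb. These bins were picked from the profile itself, and in WT the interval of the highest bin overlapped those of the bin before it (24.8 to 44.1) and of the bin 21 to 30 bp upstream (29.9 to 50.7). In G170D the interval of the highest bin overlapped those of the bin 21 to 30 bp upstream (25.5 to 45.8) and of the first 10 bp. It did not overlap that of the bin before it (12.5 to 28.0). Summed over both lists, most footprints in the gene body were found at SUP5 (XIII:168795-168883), with 6 in WT and 5 in G170D, and at YNCN0009W (XIV:547094-547196), also with 6 and 5. SUP2 (IV:946312-946400), with 4 and 6, tied with YNCK0016W (5 and 5) and YNCL0001W (6 and 4).

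**Figure D5:**
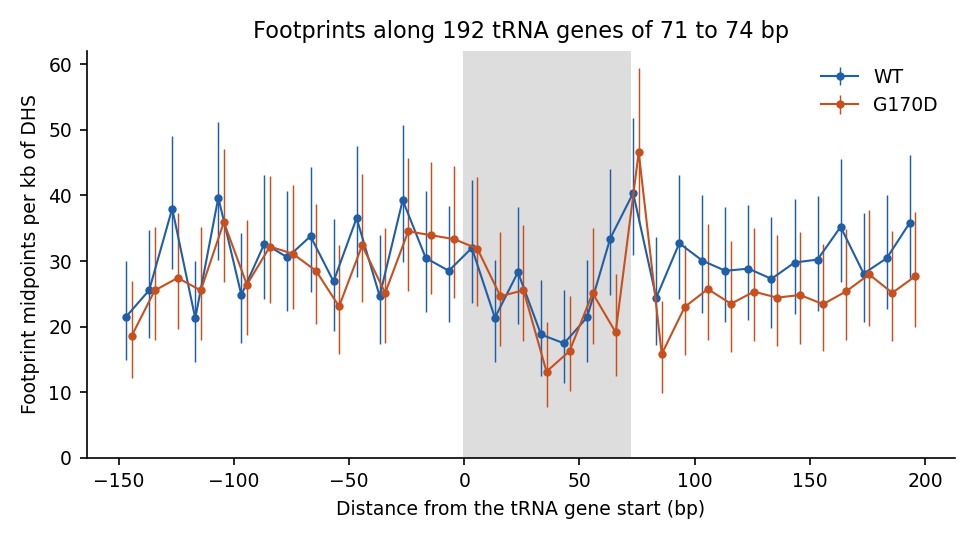
Footprint midpoints per kb of DHS in bins of 10 bp, against distance in bp from the start of 192 tRNA genes of 71 to 74 bp, in WT (blue) and G170D (orange), with exact 95% Poisson intervals. The grey band marks the gene, and the highest bin of each strain is at its end, at 40.4 and 46.6 per kb.

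Other genes transcribed by RNA polymerase III were covered to different degrees in the same kind of window. SNR6, the U6 spliceosomal RNA gene (XII:366235-366346), had 1001 bp with 23 footprints in WT, and 944 bp with 25 footprints in G170D. SNR52, a small nucleolar RNA gene (V:431129-431220), held 1054 and 813 bp, and SCR1, the RNA of the signal recognition particle (V:441987-442508), 389 and 380 bp, none of it over the gene and all from DHS that were also in reach of a tRNA gene. RPR1, the RNase P RNA gene (V:117667-118035), held 426 bp in WT and none in G170D, and RNA170 held none in either. Among the 6 listed 5S rRNA genes, RDN5-1 lay by the highest-scoring DHS of both lists and held 597 bp in each, RDN5-6 held 555 and 579 bp, and RDN5-2 to RDN5-5 held none. The 5S genes lie in the repeated ribosomal DNA, where levels of single copies cannot be told apart.

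The genes that encode the polymerase III machinery were read at their promoters, taken as the first 500 bp before the coding sequence. Of 24 genes, 8 had a promoter DHS in both lists and 12 in neither, with 2 found in the WT list alone and 2 in the G170D list alone. Among all 6002 coding genes 24.6% had one in both, 7.05% in WT alone and 4.98% in G170D alone. The mean promoter length under DHS was 107 bp (WT) and 123 bp (G170D), with 98.5 and 89.6 bp over all genes, and the median was 0 in both strains for both sets. TFC1 and TFC3, which encode subunits of TFIIIC, held 500 and 500 bp and 500 and 374 bp. MAF1, the repressor of polymerase III, held 264 bp in WT and none in G170D, and PZF1, which encodes the 5S rRNA gene factor TFIIIA, held 134 bp and none. SPT15, which encodes the TATA-binding protein of TFIIIB, held none in WT and 197 bp in G170D, and TFC8 held none and 55 bp. Of the polymerase subunit genes, RPC37 held 241 and 500 bp and RPC34 166 and 500 bp. These gains were the largest of the 24 genes, and the higher G170D mean rests on them. RPC40 held 297 and 364 bp, RPC19 42 and 85 bp, RPC17 327 and 294 bp and RPC11 91 and 84 bp. The other listed subunit genes held none in either list. The TFIIIB genes BRF1 and BDP1 had no promoter DHS in either list.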

How the data were processed

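DNase I hypersensitivity was sequenced in 2 yeast libraries, WT and G170D. The submitters' processing notes name FastQC, Bowtie 0.12.8 and the build sacCer3. Neither the program that called the DHS nor its settings are given in the sources used here, nor is the handling of reads that fit several places. The authors deposited DHS and footprints per library, with 1 score for each region, and that score served here only to rank regions within a list, infinite footprint scores first. A shallower library can give a shorter list, and the depth is unknown. The labels call the selected fragments short but give a size above 650 bp.

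The positions of tRNA genes were read from RefSeq's gene table for R64, which is the assembly behind sacCer3, with the strand read from the systematic name. The table gives no amino acid or anticodon, so the planned grouping by these was replaced by gene names and lengths. Intervals are exact (Clopper-Pearson for shares, binomial for ratios, Poisson for densities). Footprints were counted by midpoint. Python 3.11.15, numpy 2.4.6, pandas 2.3.3, scipy 1.17.1 and matplotlib 3.10.9 were used. The calculation was tested on copies of the WT lists with known changes made to them. The members, lists and comparisons were chosen with earlier results of these data known. Single tRNA genes were named by rule: up to 6 with a DHS in one list only, 4 with the largest difference in each direction, those at the 5 highest-scoring and 3 widest DHS of each list, and 3 with most footprints in the body. Members of families, genes with no DHS and genes at the limit of the rule were named in addition.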

Additional observations from a re-analysis of the deposited data

How the results depend on the processing

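No paired analysis was possible because each strain had 1 library. Of 58 values recomputed under other settings, 42 stayed within the counting interval or, where there was none, within 1.5 times, and 16 moved further; no single value changed sign, but the order of the strains turned for DHS without a partner with the gene body alone (1 DHS in each list) and for genes touched with lists of the same covered length. With the gene body alone, a DHS touched 78.5% of tRNA genes in WT and 72.7% in G170D, DHS without a partner were 0.5% and 0.529%, and the difference in length was -4.70 bp; with 1000 bp on both sides that difference was -173 bp. In the upper 50% of each list by score, 88.0% and 81.1% of genes were touched and 0 of 226 G170D members (0%) lacked a partner. When a partner had to share 50% of both DHS, 27.0% of WT and 24.0% of G170D members lacked one. With footprint lists of the same number the ratio was 0.890 in all tRNA DHS and 0.968 in the shared length, and with the stronger 50% of each footprint list 0.716 and 0.763. With lists of the same covered length, an alternative chosen after seeing the data, 90.2% of genes were touched in WT, below the 91.3% of G170D. The mean difference in length was then -80.9 bp. The cause of these changes was not tested. Alternatives to the outer zones were also chosen after seeing the data, and in each of these the G170D percentage was lower downstream (67.8% to 81.0%) than upstream (89.3% to 92.5%).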
